A study of Mus musculus with 12 samples.

Results

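The cytosolic ribosomal protein genes were examined in liver RNA from germ-free (GF) and conventionalized (CV) C57BL/6 mice. Members were the rows of the gene table whose symbol was Rpl or Rps with a number and at most 1 closing letter a, x or l, together with Rpsa, Rplp0, Rplp1 and Rplp2. This gave 81 of 41128 genes, 49 of the large subunit and 32 of the small subunit, on 19 chromosomes. Of these, 77 had a mean value of at least 10 over the libraries and were tested among 11782 genes. Pseudogene rows ending in -ps and the S6 kinases were no members, and Rps3a1, Fau and Rack1, which also encode ribosomal or ribosome-bound proteins, lay outside the naming rule.

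GF mice stayed in sterile isolators. CV mice were their littermates, taken out at weaning (day 21) and kept for 3 weeks on soiled bedding from the same facility. All mice were of the same strain, and the labels name no engineered allele. They were killed at 6 weeks of age. The 12 libraries, 1 per mouse, fell into 4 groups of 3, namely GF females, CV females, GF males and CV males.

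The cytosolic ribosome is built from ribosomal RNA and about as many different proteins as there are members here, most of them present once per particle. Many ribosomal protein mRNAs begin with a terminal oligopyrimidine (TOP) tract, an unbroken run of C and U, through which mTOR signalling and the RNA-binding protein Larp1 adjust their translation. The liver, which secretes most plasma proteins, is rich in ribosomes. RNA levels give no measure of translation or of ribosome number.

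Recovered reads ranged from 5993619 to 15290835 per library. A set of 9 abundant loci, chiefly mitochondrial and nuclear ribosomal RNA, took 42.1 to 69.8% of reads in the 6 GF libraries and 5.43 to 22.0% in the 6 CV libraries. CV male 2 and CV male 3 held 21.5 and 22.0%, the highest CV shares. An Xist value of 2382 with 0 Y-linked reads was found in the sample that the labels call CV male 3, which goes against that label. The members called in males, the male median change and the median difference between the sexes are therefore also given without it. Most other male results keep it. All 10 hepatocyte markers were detected, as the liver label asks, and their summed value was 133089 to 514658 in GF and 449287 to 704674 in CV libraries. The 9 lymphocyte markers summed to 283 to 554 in GF and 72.3 to 144 in CV libraries, and the 7 erythroid markers to 2787 to 32922 in GF and 916 to 3162 in CV libraries. The 7 Kupffer cell markers summed to 1521 to 1817 in GF and 2032 to 2331 in CV females and to 918 to 965 in GF and 1055 to 2045 in CV males. The 5 bile duct markers (769 to 1008 in GF and 638 to 736 in CV females) and the 6 endothelial markers (1633 to 2806 and 1102 to 1240) were lower in CV females without overlap and overlapped in males, and the 6 stellate cell markers overlapped in females (1802 to 2915 and 2088 to 2531) and spanned 1389 to 1589 in GF and 1542 to 2882 in CV males. No marker of the 7 lists was at 0 in all libraries. In bulk tissue fewer cells of a type and less RNA per cell cannot be told apart, and the part of these differences in the results below was not tested.

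Ribosomal protein genes took a small and variable share of the reads. As a share of all reads, they held 0.181 to 0.310% in GF females, 0.621 to 0.878% in CV females, 0.362 to 0.702% in GF males and 0.514 to 0.906% in CV males. The female groups did not overlap and the male groups did. Outside the 9 abundant loci the shares were 0.600 to 0.946% in GF females, 0.660 to 0.955% in CV females, 0.755 to 1.22% in GF males and 0.544 to 1.16% in CV males. On that denominator CV and GF overlapped in both sexes.

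**Figure D1:**
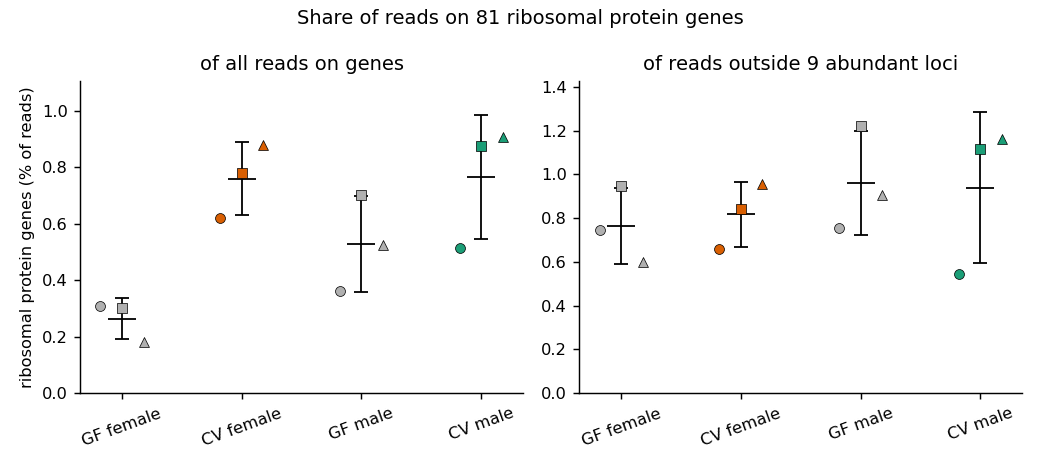
Percent of reads on the 81 ribosomal protein genes in each library, out of all reads on genes (left) and out of reads outside 9 abundant loci (right), with the mean and SD of 3 libraries per group. The female groups are apart on the left (highest GF 0.310%, lowest CV 0.621%) and overlap on the right.

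Within a group most members put the same library highest and the same lowest, and how many of all genes did so was not counted. The library GF female 2 was the highest of its group for 77 of the 77 tested members, and GF female 3 the lowest for 72. CV female 1 was the lowest of its group for 77 of 77, and CV female 3 the highest for 72. In males, GF male 2 was the highest of its group for 75 members and GF male 1 the lowest for 73, while CV male 3 was the highest for 65 and CV male 1 the lowest for 72. The median coefficient of variation over the members was 41.7% in GF females, 24.7% in CV females, 39.5% in GF males and 34.6% in CV males. Over all genes tested it was 28.2, 14.3, 24.5 and 27.9% in the same order. The members thus varied more between mice of 1 group than the typical gene did, which widened their standard errors.

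To ask whether conventionalization changed the level of these genes in females, CV and GF females were compared with limma, on log2(value + 1), adjusted over all genes tested. In CV females 28 of the 77 tested members rose and 0 fell. The largest increases were of Rplp0, which forms the base of the ribosomal stalk, Rps6, the main ribosomal substrate of the S6 kinases, and Rpl15, a core protein of the large subunit. Over all genes, 29.8% were called higher and 26.0% lower in CV females. The members' share of increases, 36.4%, was thus near the background, whereas none was called lower. Beside the 0 lower calls, none of the 13 members with a fold change below 1 had an unadjusted p under 0.05 in limma, and edgeR and DESeq2 on recovered reads also called 0 lower. Decreases were called under other settings, 2 when scaled to reads outside the 9 abundant loci (Rpl38 and Rps12) and 8 after a trend on transcript length and GC content was removed. Leaving out GF female 3, the lowest GF female for most members, left 17 increases, against 3121 of all 11697 genes in that fit.

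Rplp0 (ENSMUSG00000067274, GRCm38 chromosome 5, 115559467 to 115563727, plus strand) had values of 444, 758 and 435 in the GF females and of 1929, 2145 and 2380 in the CV females. Every CV female lay above every GF female, with a log2 change of 2.02 ± 0.27 (SE, n = 3 per group, limma adjusted p = 2.3e-05). In males its values were 650, 1070 and 924 in GF and 1997, 1958 and 1890 in CV mice. The male groups did not overlap either, with a log2 change of 1.17 ± 0.27 (limma adjusted p = 0.0054).

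Rpl3 (ENSMUSG00000060036, chromosome 15, 80077791 to 80091868, minus strand), a large subunit protein that reaches towards the peptidyl transferase centre, had values of 326, 418 and 360 in GF females and 1012, 1084 and 1204 in CV females. In males they were 323, 535 and 500 in GF and 847, 855 and 793 in CV mice. Both sexes were separated, by 1.58 ± 0.23 in females and 0.91 ± 0.23 in males on the log2 scale (SE, limma adjusted p = 5.5e-05 and 0.010).

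Rps6 (ENSMUSG00000028495, chromosome 4, 86854660 to 86857412, minus strand) had values of 172, 210 and 88.2 in GF females and 477, 620 and 597 in CV females. In males they were 186, 449 and 261 in GF and 518, 602 and 554 in CV mice. The groups did not overlap in either sex. The log2 change was 1.92 ± 0.33 in females and 0.99 ± 0.33 in males (SE, limma adjusted p = 0.00018 and 0.034).

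Rpl15 (ENSMUSG00000012405, chromosome 14, 18267823 to 18271391, minus strand) had values of 127, 216 and 82.4 in GF females and 398, 530 and 537 in CV females. The log2 difference of 1.88 ± 0.33 (SE) passed the test, with a limma adjusted p of 0.00024. In males they were 211, 471 and 257 in GF and 466, 436 and 546 in CV mice. The male groups overlapped, because GF male 2 exceeded 2 of the CV males, and the log2 change of 0.71 ± 0.33 did not pass the test (limma adjusted p = 0.12).

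**Figure D2:**
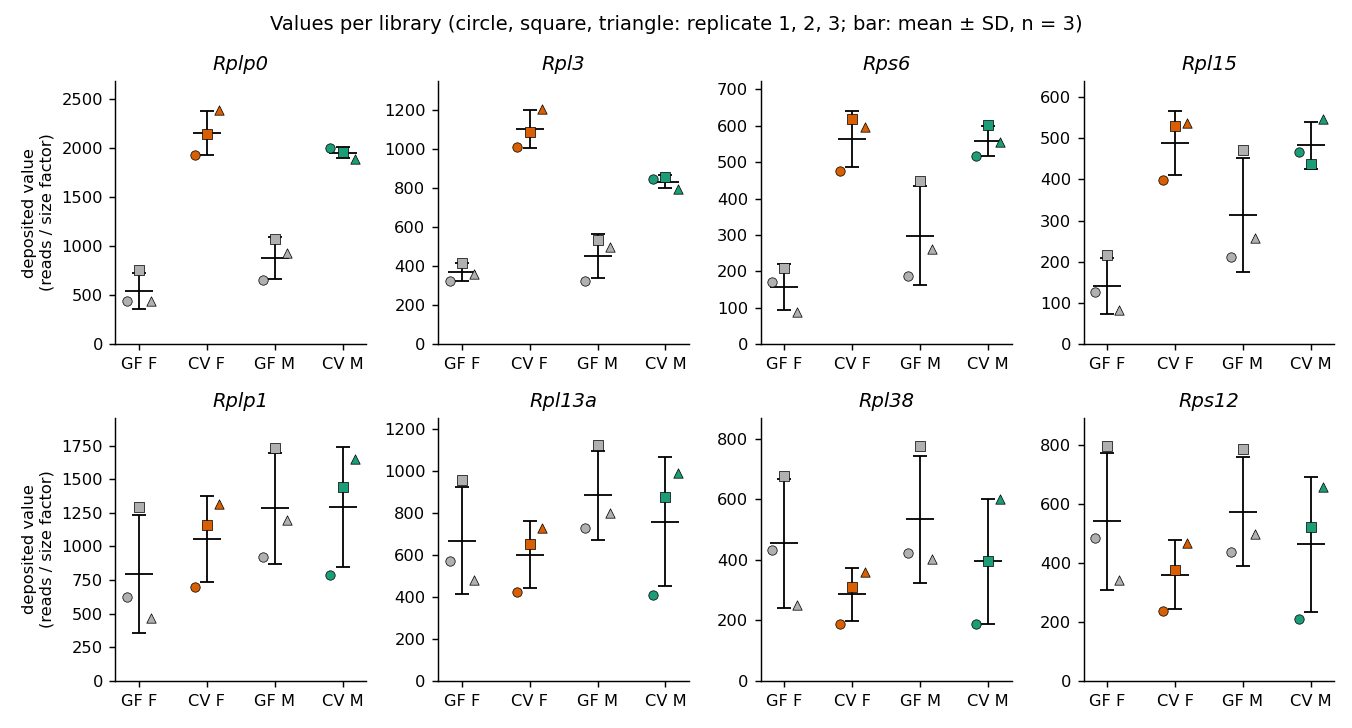
Deposited values (reads divided by a size factor) of 8 ribosomal protein genes in each library, with the mean and SD of 3 libraries per group. Rplp0, Rpl3, Rps6 and Rpl15 are separated in females, whereas Rplp1, Rpl13a, Rpl38 and Rps12 overlap between GF and CV in both sexes.

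Among the genes chosen for their roles, Rps3 and Rpl5 passed the test in females beside Rplp0 and Rps6. Rplp1 and Rplp2, the acidic proteins that dock on Rplp0, had log2 changes of 0.50 ± 0.38 and 0.63 ± 0.38 and did not pass the test. Rps3, which lines the mRNA entry channel, rose by 1.83 ± 0.39 (limma adjusted p = 0.00088). Rpl5 rose by 1.10 ± 0.28 (limma adjusted p = 0.0037), and its partner Rpl11, with which it carries 5S rRNA and binds Mdm2, had a change of 0.81 ± 0.37 that missed the threshold (limma adjusted p = 0.069). The difference between Rpl5 and Rpl11 was not tested. Rps27a, which is made as a fusion with ubiquitin, had a log2 change of 0.80 ± 0.39 and Rpsa, also known as a laminin receptor, one of 0.38 ± 0.32, and neither passed. Rpl13a, a protein with an extraribosomal role in silencing inflammatory mRNAs, had a log2 change of -0.13 ± 0.35.

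In males fewer genes passed. 6 of the 77 members rose and 0 fell, against a background of 14.1% of all genes higher and 15.4% lower. The 6 were Rplp0, Rpl3, Rps4l, Rpl9, Rpl4 and Rps6, so the share of members called higher, 7.79%, lay under that of all genes. Of the 31 members with a fold change below 1, none had an unadjusted p under 0.05 in limma, and edgeR and DESeq2 again called 0 lower. Without the library labelled CV male 3, 3 passed, namely Rplp0 (1.20 ± 0.31, limma adjusted p = 0.012), Rpl3 (0.94 ± 0.27, adjusted p = 0.021) and Rpl9 (0.92 ± 0.32, adjusted p = 0.047). In that fit 1428 of all 11800 genes tested were called higher. The count of increases was 1 without GF male 1 (725 of all 11740 genes) and 2 without GF male 3 (983 of 11765). It was 3 without CV male 2 (1569 of 11788) and 11 without GF male 2 (1780 of 11798).

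A comparison of the raw values gave similar counts. In females 26 of 77 had every CV library above every GF library (33.8%, against 34.0% of all genes), and none had every CV library below (31.0% of all genes). In males 6 members were separated upward (7.79%, against 22.0% of all genes) and none downward (21.1% of all genes). In females Rps9 and Rpl41 were called by limma although their groups overlapped. In males the 6 were those called by limma, and each of them was also separated in females. Rpl9, a large subunit protein, had male values of 275, 346 and 369 in GF and 526, 731 and 584 in CV mice. Rpl4, which lines the exit tunnel for the growing peptide, had 887, 1146 and 1023 in GF and 1788, 1736 and 1756 in CV mice.

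The difference between the sexes itself did not pass for any member. The interaction, the male effect minus the female effect, was called for 0 of 77 members and for 0.0% of all genes in limma. It was below 0 for 74 members, that is, their female log2 change lay above the male one, with a median of -0.49 against -0.06 over all genes. That median was -0.18 without GF female 3, -0.19 without CV male 1 and -0.21 without GF male 2. Without CV male 3, the library with the doubtful label, it was -0.70 and 0 members were above 0. It was -0.70 without GF male 1, -0.71 without CV female 1 and -0.81 without GF female 2. Scaled to reads outside the 9 abundant loci it was -0.16, and 21 members were above 0. Only 2 members, Rpl15 (-1.17, unadjusted p = 0.025) and Rplp0 (-0.85, unadjusted p = 0.039), had an unadjusted p under 0.05, and edgeR and DESeq2 also called 0 members.

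The median change of the members depended on the scaling of the libraries. With the deposited size factors it was 0.63 in females and 0.12 in males on the log2 scale, against 0.08 and 0.06 over all genes. Scaled to all reads it was 1.44 and 0.43, with 65 and 17 members called higher, against 49.5% and 23.9% of all genes, and 0 called lower in either sex, against 9.5% and 6.69%. Scaled to reads outside the 9 abundant loci it was -0.00 and -0.19. There 8 members were higher and 2 lower in females (15.5% and 39.7% of all genes) and 2 higher and 0 lower in males (7.23% and 19.2% of all genes). The all-gene median shifted with the scaling, to 0.86 and 0.37 on all reads and to -0.55 and -0.24 outside the 9 loci. A scaling moves all genes of a library alike, so the distance of the members from the all-gene median, 0.56 in females and 0.06 in males with the deposited size factors, hardly depends on it. That distance did depend on single libraries and on the genes compared. In females it was 0.21 without GF female 3 and 0.91 without GF female 2, 0.32 over genes with a mean of at least 50, 0.80 over those with a mean of at least 1, and 0.03 after the length and GC trend was removed. The male median was -0.11 once GF male 1 was left out and -0.10 once CV male 3 was. It was 0.43 when GF male 2 and 0.45 when CV male 1 was the one omitted.

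**Figure D3:**
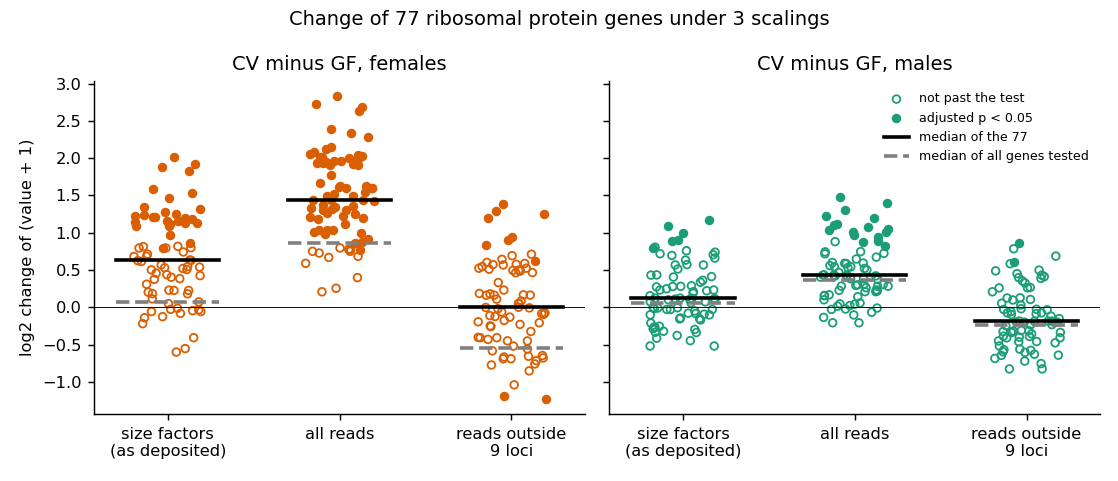
log2 change (CV minus GF) of the 77 tested ribosomal protein genes, 1 point per gene, under 3 scalings of the libraries, in females (left) and males (right). Solid bars mark the median of the members and dashed bars that of all genes tested, and both bars move together with the scaling, in females from 0.63 and 0.08 to 1.44 and 0.86 and to -0.00 and -0.55.

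Not all members followed the increase. Rpl38, a small large-subunit protein that is known for its part in translating Hox mRNAs, had values of 433, 678 and 251 in GF females and 190, 310 and 359 in CV females. In males they were 423, 776 and 402 in GF and 188, 397 and 600 in CV mice. The groups overlapped in both sexes, and the log2 changes of -0.60 ± 0.42 and -0.52 ± 0.42 did not pass the test (limma adjusted p = 0.24 and 0.37). After the length and GC trend was removed, Rpl38 was called lower in females (-0.90, limma adjusted p = 0.0059).

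Rps12, a protein of the small subunit head, had values of 486, 798 and 343 in GF females and 237, 377 and 470 in CV females, and of 438, 787 and 500 in GF males and 211, 523 and 659 in CV males. Its groups overlapped as well, at -0.55 ± 0.41 in females and -0.41 ± 0.41 in males. Rps21 (-0.41 ± 0.51) and Rpl26 (-0.22 ± 0.39) completed the female values furthest below 0, and Rpl12 (-0.52 ± 0.37), Rpl28 (-0.45 ± 0.42) and Rpl36 (-0.38 ± 0.43) were among those in males. None of these passed the test. After the length and GC trend was removed, Rps12 (-0.99, limma adjusted p = 0.0034), Rpl26 (-0.71, 0.021) and Rpl13a (-0.92, 0.013) were called lower in females and Rpl12 (-0.91, 0.045) in males.

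The members that rose were mostly those with long coding sequences. The 76 tested members with an annotated coding sequence were split by coding length into 3 groups of nearly equal size. In the longest group (564 to 1257 bases), 21 of 26 rose in females and the median log2 change was 1.17. In the middle group (399 to 552 bases) 4 of 25 rose, with a median of 0.54, and in the shortest (75 to 396 bases) 2 of 25 rose, namely Rpl41 and Rps27l, with a median of 0.42. In males 5 of 26, 0 of 25 and 0 of 25 rose, with medians of 0.57, 0.10 and -0.05 from the longest to the shortest.

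Other genes of the same coding lengths did not show this order. Their female medians were 0.66 (3711 genes), 1.05 (626 genes) and 0.86 (537 genes) from the longest to the shortest range, and their male medians 0.43, 0.57 and 0.42. Of these other genes 46.3, 57.0 and 50.3% were called higher in females and 25.5, 25.7 and 16.6% in males, in the same order. In females the short ribosomal protein genes thus lay under, and the long ones above, other genes of their size. Across the 76 members, Spearman's rho between coding length and change was 0.55 in females and 0.58 in males. Across the 4911 other genes in the same range it was -0.18 and -0.12. These are correlations across genes measured in the same libraries, and genes are not independent replicates. After a trend of change on transcript length and GC content, drawn over all genes, was removed, rho over the members was 0.39 and 0.36. With that trend removed, 13 members were called higher and 8 lower in females, against 29.0% and 22.6% of all genes, and 2 higher and 1 lower in males, against 12.8% and 13.0%.

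**Figure D4:**
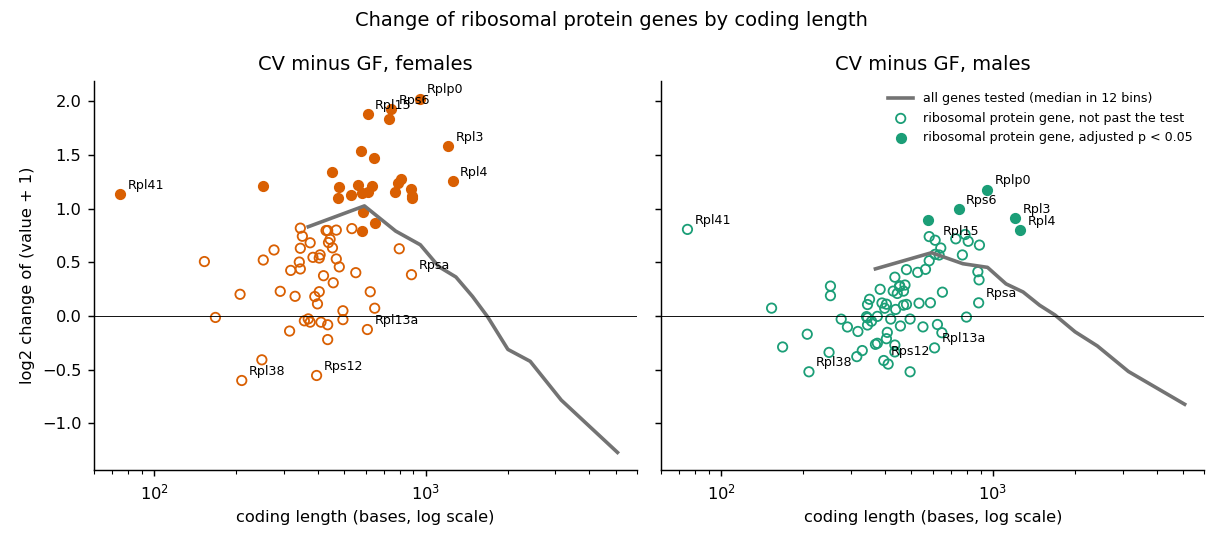
log2 change (CV minus GF) against coding length in bases (log scale) for 76 ribosomal protein genes in females (left) and males (right), with filled points for genes past the test. The grey line joins the medians of all genes tested in 12 bins of coding length, and the members climb from Rpl38 and Rps12 below 0 to Rplp0, Rps6 and Rpl3 above the line.

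Ratios between genes of 1 library do not depend on its scaling. The summed value of the group of longest genes over that of the shortest was 1.13, 1.14 and 1.29 in GF females and 2.24, 1.89 and 1.76 in CV females. In males it was 1.19, 1.11 and 1.34 in GF and 2.50, 1.56 and 1.36 in CV mice. CV exceeded GF without overlap in both sexes, although CV male 3 was only just above the highest GF male. The CV mean was 1.66 times the GF mean in females and 1.49 times in males (two-sided exact permutation p = 0.1 in each, the smallest that 3 against 3 allows). In the 6 CV libraries this ratio was lowest where the 9 abundant loci took most, in CV male 2 and CV male 3. The GF libraries did not keep that order. Their ratio was 1.34 in GF male 3 (42.1% of reads on these loci), 1.11 in GF male 2 (42.6%) and 1.19 in GF male 1 (52.1%). It was 1.13 in GF female 1 (58.5%), 1.14 in GF female 2 (68.3%) and 1.29 in GF female 3 (69.8%). Every GF library had a higher share of reads on these loci and a lower ratio than every CV library. Between GF and CV that share and the condition thus cannot be told apart. The part of the 9 loci in this ratio was not tested.

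The ratios within the stalk are no separate evidence. Its genes enter the sums by coding length above, and Rplp0 had the largest female increase of the members. Rplp0 over Rplp1 was 0.72, 0.59 and 0.93 in GF females and 2.75, 1.85 and 1.81 in CV females. It was 0.71, 0.62 and 0.77 in GF males and 2.53, 1.35 and 1.15 in CV males. No GF library reached 1 and no CV library fell under it (two-sided exact permutation p = 0.1 in each sex). Rplp1 over Rplp2, genes of like coding length, was 1.92 to 2.13 in CV females and 2.11 to 2.44 in GF females, and 2.25 to 2.50 in CV and 2.08 to 2.63 in GF males, with overlap in both sexes (two-sided exact permutation p = 0.3 and 1.0). These ratios of values are not per length, so their size across genes is no stoichiometry, and only their change between groups is compared.

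**Figure D5:**
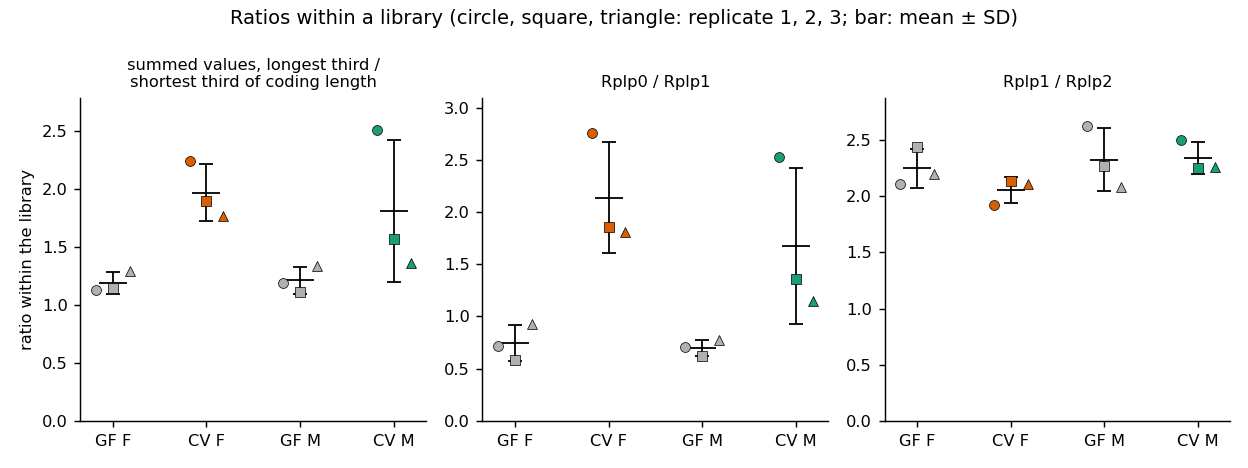
Ratios within each library, which no scaling changes, for the summed values of the longest over the shortest of the 3 groups by coding length, Rplp0 over Rplp1, and Rplp1 over Rplp2, with the mean and SD of 3 libraries per group. CV libraries lie above GF libraries in the left and middle panels, and the groups overlap in the panel on the right.

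Per kilobase of annotated transcript, the members with the highest mean levels over the 12 libraries were Rps27l (3164 ± 1440 per kb, SD), Rps29 (2405 ± 1086), Rplp1 (2219 ± 819), Rps18 (2080 ± 718) and Rpl36 (1845 ± 818). Neighbours in this order did not differ beyond their spread. Rps27l was first in CV females and in both male groups, and in GF females it was the 4th (1604 per kb), after Rps29 (2089), Rps18 (1675) and Rpl36 (1634). None of the 5 apart from Rps27l passed the test in either sex. Rps29 and Rps18 are small subunit proteins of the head.

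Second copies of ribosomal protein genes differed from their parents in level. Rps27l, a p53-responsive relative of Rps27, had values of 826, 1200 and 376 in GF females and 1416, 1707 and 1913 in CV females. It rose by 1.21 ± 0.41 (SE) on the log2 scale, with a limma adjusted p of 0.018. Its parent Rps27 had a change of 0.52 ± 0.41 that did not pass. Within a library Rps27l was 1.57 to 2.71 times Rps27 in GF females and 2.97 to 4.56 times in CV females. In males this ratio was 3.80 to 4.00 in GF and 3.72 to 4.95 in CV mice, so only the female groups were apart.

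Rps4l, a single-exon gene that the annotation gives no coding sequence, rose in both sexes, by 1.32 ± 0.32 in females and 1.09 ± 0.32 in males (SE, limma adjusted p = 0.0024 and 0.019). Its male values were 68.9, 157 and 104 in GF and 184, 230 and 260 in CV mice. Its X-linked parent Rps4x rose by 1.23 ± 0.31 in females (limma adjusted p = 0.0034) and had a male change of 0.76 ± 0.31 that missed the threshold (limma adjusted p = 0.079). Rps4l over Rps4x was 0.153 to 0.332 in all 12 libraries. Reads of such near copies can be split between them or dropped in counting, so the share of each copy is uncertain. Rpl10, also X-linked and a late-joining protein near the peptidyl transferase centre, rose by 1.47 ± 0.31 in females (limma adjusted p = 0.00089), and X-linked Rpl39 did not pass (0.51 ± 0.39).

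Of the members 4 did not pass the filter on low values. Rpl3l, Rpl10l and Rpl39l, copies known from striated muscle and testis, had at most 2, 1 and 2 reads in any library. Rpl24 had at most 4 reads, although it encodes a core large subunit protein, and another gene model on the same strand, Gm28037, overlaps it, so its level is uncertain. Of the 81 members 9 were overlapped by another gene on the same strand and 22 by one on the opposite strand, among them Rpl15 by Nkiras1 and Rpl3 by Syngr1, and 29 hold snoRNA genes. The 240 pseudogene rows marked by -ps in their symbol together held 91 to 324 reads per library. Pseudogenes under other names were not counted. Whether reads on the opposite strand were kept apart in counting is not given in the sources used here.

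The start regions of 8 members are shown because TOP tracts are known from this family, 4 from genes that rose in females (Rplp0, Rps6, Rpl15, Rpl4) and 4 from genes whose fold change was below 1 there (Rpl38, Rps12, Rps21, Rpl13a). Each runs from 50 bases before to 25 bases after the annotated start on the gene's strand (RefSeq, GRCm38.p6), with its longest run of C and T in capitals. The run is only 7 bases in Rplp0 and Rps21, and a run in this window is not shown to be a TOP tract.
Rplp0: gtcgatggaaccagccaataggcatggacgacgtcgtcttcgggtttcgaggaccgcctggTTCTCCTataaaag
Rps6: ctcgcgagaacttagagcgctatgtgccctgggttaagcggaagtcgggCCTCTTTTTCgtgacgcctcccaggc
Rpl15: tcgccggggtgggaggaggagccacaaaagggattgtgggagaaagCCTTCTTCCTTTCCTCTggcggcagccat
Rpl4: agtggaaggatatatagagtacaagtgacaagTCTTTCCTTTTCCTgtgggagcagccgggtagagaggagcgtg
Rpl38: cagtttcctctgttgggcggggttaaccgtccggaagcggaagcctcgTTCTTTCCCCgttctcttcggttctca
Rps12: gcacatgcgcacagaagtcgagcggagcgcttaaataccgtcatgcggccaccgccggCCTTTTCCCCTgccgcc
Rps21: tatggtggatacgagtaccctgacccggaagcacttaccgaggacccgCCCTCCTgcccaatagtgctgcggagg
Rpl13a: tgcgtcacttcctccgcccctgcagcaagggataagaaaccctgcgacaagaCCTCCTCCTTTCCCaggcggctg

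A run of at least 8 C or T on the gene's strand was found in this window in 34 of the 60 members that the RefSeq table held (56.7%), against 29.1% of 27025 promoters. The letters CTTTCC on that strand, which such a run can contain, were found in 11 of 60 members (18.3%) and in 3.64% of all. The run did not set apart the members that rose. In females the median log2 change was 0.63 in the 33 tested members with such a run (10 called) and 0.80 in the 23 without (10 called). In males the medians were 0.11 and 0.12, with 2 called in each. Of the sequences shown, those of Rps12, Rpl38 and Rpl13a hold long runs as do those of Rpl15 and Rpl4.

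Other genes of the pathway were taken from lists of translation factors, ribosome biogenesis factors and regulators. Of the 21 translation genes with TOP mRNAs counted here, 12 rose in females and 7 in males, with median log2 changes of 1.03 and 0.46. The counts of this and the following lists stand beside 29.8% of all genes called higher and 26.0% lower in females and 14.1% and 15.4% in males, and the shares of the biogenesis genes and regulators that rose in females were near that background. Eef1a1, which brings aminoacyl-tRNA to the ribosome, had values of 1405, 2639 and 1233 in GF females and 7570, 7333 and 6992 in CV females. It rose by 2.14 ± 0.31 in females and 1.38 ± 0.31 in males (limma adjusted p = 4.5e-05 and 0.0050).

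Of 28 ribosome biogenesis genes, 9 rose and 3 fell in females and 0 rose and 4 fell in males. Polr1a, the largest subunit of RNA polymerase I, fell by 1.48 ± 0.22 in females and by 0.95 ± 0.22 in males on the log2 scale. Nop16, a nucleolar protein, rose by 2.12 ± 0.30 in females and had a male change of 0.78 ± 0.30 that missed the threshold. Of 16 tested regulators, 5 rose and 2 fell in females and 5 rose and 1 fell in males. Eif4ebp1, the mTOR-controlled inhibitor of cap-dependent initiation, rose by 2.23 ± 0.28 and 1.24 ± 0.28 in females and males. Rps6kb1, the kinase of Rps6, fell by 1.15 ± 0.21 in females, with values of 326, 314 and 284 in GF and 128, 159 and 129 in CV mice, whereas the male change of -0.43 ± 0.21 did not pass. Larp1 (0.14 ± 0.23) and Mtor (-0.64 ± 0.27) did not pass in females. Of 5 tested snoRNA host RNAs, 2 fell in females, Snhg5 and Snhg12, and 0 were called in males. Of 3 tested ribosomal protein paralogs outside the naming rule, 1 rose in females, Rpl7l1, and 0 were called in males.

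Other protein complexes are set beside the cytosolic ribosome for scale. Of 76 tested mitochondrial ribosomal protein genes, 67 rose and 1 fell in females and 30 rose and 1 fell in males, with median log2 changes of 1.44 and 0.74. Of 34 tested constitutive proteasome subunits, 34 rose in females and 17 in males, with medians of 1.56 and 0.78, and 0 fell. The cytosolic ribosomal protein medians were 0.63 and 0.12. The difference between these lists was not tested.

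The subunits of the cytosolic ribosome had like counts. Of 45 tested large subunit genes 17 rose in females and 4 in males, with medians of 0.61 and 0.11. Of 32 tested small subunit genes 11 rose in females and 2 in males, with medians of 0.68 and 0.16.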

How the data were processed

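Liver RNA of 12 mice was sequenced after poly(A) selection with a stranded kit, per the labels. The submitters' processing notes name HTSeq 0.6.1p1, DESeq2 and GRCm38, and the aligner, annotation and counting options are not given in the sources used here. The paper linked to the series describes another experiment, so no method was taken from it. The deposited signal is the gene count divided by the authors' size factor for each library, and 100.0% of values were whole multiples of 1 read within 0.01 reads, so reads were recovered.

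Members, lists and tests were chosen with earlier results of these data known. Groups and replicate numbers came from sample titles. Log2(value + 1) of 11782 genes with a mean of at least 10 was fitted with limma 3.58.1 (R 4.3.3, variance trend, 1 mean per group, Benjamini-Hochberg adjustment over all genes, threshold 0.05). Fold changes on this scale understate those of low genes. edgeR 4.0.16 and DESeq2 1.42.0 were run on recovered reads as alternatives, with other scalings, filters, pseudocounts, covariates and each library left out. The fit was also run on simulated data with known 4-fold changes, scored only in the contrast averaged over sexes. Genes were drawn independently there, so it does not bear on calls within a sex or on members that vary together. Ratios were tested by exact permutation.

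Coordinates, coding lengths and transcript lengths are from GENCODE M21 on GRCm38, which listed 97.9% of identifiers. Named were the 3 called members with the smallest adjusted p per sex and direction. Also named were the 5 highest per kb, second copies with their parents, 10 members by role and the 2 smallest interaction p. So were up to 5 per sex against the median's sign and members under the filter. Up to 3 genes were selected per list and direction, and not all of those are given here. Larp1 and Mtor were named outside these rules. Other members were named after their values were seen, among them Rpl9, Rpl4 and Rpl41. In addition, 1 gene of the list of translation genes is not reported here and was left out of its counts.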

Additional observations from a re-analysis of the deposited data

How the results depend on the processing

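In females the 28 members called higher became 65 when scaled to all reads, 8 when scaled to reads outside the 9 abundant loci, 0 with the mitochondrial rRNA share as covariate, and 13 after the length and GC trend was removed, with or without the replicate block. The 0 called lower became 2 outside the 9 loci, 8 after the trend was removed, and 10 with the trend removed and the replicate block. In males the 6 called higher became 17, 2, 0 and 2 under the same settings in turn, and 2 with the trend removed and the block, and the 0 called lower became 1 after the trend was removed and 2 with the block as well. Leaving out 1 library gave 17 to 42 increases in females, 1 to 11 in males, 0 decreases and 0 interaction calls. Over all genes, those fits called 2964 to 3717 higher in females and 725 to 1912 in males. The interaction stayed at 0 calls in all settings run. The covariate fit called 0 genes in females and 3 in males of all 11782, since 93.5% of the variance of that share lies between the groups, so the share and the condition cannot be told apart.

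The block alone gave 32 increases in females and 8 in males, a change of under 1.5 times. With it, 3560 and 1695 of all 11782 genes were called higher. Same-numbered libraries of the conditions correlated in their deviations at -0.23 to 0.02, and 0 of 12 libraries correlated best with their own number, so the numbers were not treated as pairs.

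Of 1624 alternative values of 29 named genes, 0 were called with the opposite sign. Another 107, of genes uncalled in both fits, changed sign. 59 lost and 43 gained a call. The cause was not tested. Genes with few reads, such as Rpl23a, and GF libraries, with as few as 1811042 reads outside the 9 loci, limit precision.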
